A study of Homo sapiens with 6 samples.

Results

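The genes described here are the copies of 4 families spread by segmental duplication, GOLGA6, GOLGA8, NPIPA and NPIPB, in human PC3 prostate cancer cells with and without knockdown of TTC3. They were chosen by symbol and by summed raw count: every row of the gene table whose symbol began with one of these names and whose 6 counts summed to at least 60. This kept 47 of 70 family rows, among 62700 genes in all: 10 GOLGA6, 15 GOLGA8, 8 NPIPA and 14 NPIPB genes. The summed count chose the genes and did not use the difference between the groups. GOLGA6A to GOLGA6D reached it almost wholly through the control libraries, with 1 to 5 counts summed over the TTC3 shRNA libraries. Just inside the threshold were a second GOLGA8M row with a summed count of 69, NPIPB15 with 107, GOLGA6L17P with 134 and GOLGA6L3P with 138. Just outside were GOLGA6L23P and a second GOLGA8IP row, with 36 each, and 10 of the 23 rows left out had a count of 0 in every library.

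The knockdown cells carried a short hairpin RNA (shRNA, which directs degradation of a matching messenger RNA) against TTC3, an E3 ubiquitin ligase, and the other cells carried a control shRNA. PC3 is an established prostate cancer line, the control cells are labelled wild type, and no other allele or agent is labelled. There were 3 libraries per group, made from total RNA after ribosomal RNA depletion. Whether separate cultures were used is not labelled, and the p-values therefore rest on a spread between libraries that could be technical alone.

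Libraries summed to 144655100 to 155526861 estimated counts in TTC3 shRNA cells and 143246356 to 154832203 in control cells. TTC3 itself fell to 196 ± 27.5 CPM (counts scaled to library size) in TTC3 shRNA cells, against 687 ± 7.86 CPM in control cells (SD, n = 3 each). TTC3 shRNA replicate 1 stood apart: its counts differed from those of replicates 2 and 3 by 42.05 and 54.07 times the sampling noise (median chi-square per gene), against 8.54 between replicates 2 and 3 and 4.12 to 5.54 among the controls. The epithelial keratins KRT8 and KRT18 and the mesenchymal VIM were abundant in both groups, and KRT18 and VIM rose by 0.53 ± 0.16 and 0.40 ± 0.10 on the log2 scale (edgeR adjusted p = 0.0392 and 0.0194), as did EPCAM by 0.32 ± 0.10 (0.042). The epithelial cadherin CDH1 fell and was at 0.599 ± 0.131 CPM in TTC3 shRNA cells and 1.97 ± 0.0636 CPM in control cells. Of the luminal prostate markers examined, TMPRSS2 fell to 18.0 to 18.5 CPM in TTC3 shRNA libraries, against 37.4 to 38.1 CPM in control libraries, and KLK3 was at 0 throughout. Of 6 markers of other cell types 2 rose (COL1A1 and CD68), 1 fell (PECAM1), and CD3E was at 0, with sums of 79.1 to 123.5 CPM in TTC3 shRNA libraries and 35.8 to 40.5 CPM in control libraries. The part of these marker shifts in the results below was not tested.

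Golgins are coiled-coil proteins that tether vesicles and structural elements at the Golgi apparatus. The GOLGA6 and GOLGA8 genes are primate copies related to the golgin GOLGA2, scattered along chromosome 15, where GOLGA8 copies flank recurrent rearrangements, and the function of most copies is not established. NPIP genes, named for the nuclear pore complex interacting protein family, belong to a duplicated segment of chromosome 16 whose coding sequence changed quickly in apes, and their cellular function is largely unknown. Copies of one family can be nearly identical, so a short read often fits more than 1 of them.

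Most of the family genes were lower in TTC3 shRNA cells, none passed the test as higher, and the fall ranged from near-complete loss of GOLGA6A, GOLGA6B, GOLGA6C and GOLGA6D to no detectable change in the most abundant NPIPB genes. In the edgeR quasi-likelihood test, adjusted over all 24325 tested genes, 26 of the 46 tested family genes fell and 0 rose, where 17.8% of all tested genes fell, 15.7% rose and 33.6% passed in either direction. DESeq2 called 25 lower and 0 higher, limma-voom 26 and 0, and at an unadjusted p below 0.05 the edgeR counts were 29 and 0. The shares of all genes in these other counts are not given here. Without TTC3 shRNA replicate 1, which stood apart, 27 fell and 0 rose. Over all genes 7065 fell in that fit, against 4338 in the main fit, so the main-fit shares do not apply to it. The fitted change was negative for 46 of 46, where it was negative for 12509 of all 24325 tested genes. The median log2 fold change was -0.73, against -0.02 over all tested genes. Copies share reads, so these counts of genes are not counts of separate measurements. Without TTC3 shRNA replicate 1 the fitted changes of NPIPB3, NPIPB4, NPIPB5 and the second GOLGA8M row, tested there, were above 0 and none of them passed. Taken library by library against the control mean, the median log2 difference was -0.65, -0.70 and -0.62 in TTC3 shRNA replicates 1, 2 and 3. All 3 TTC3 shRNA libraries lay below all 3 control libraries for 35 of the 47 genes, where 27.0% of all tested genes did so, and the groups overlapped for the other 12. In bulk RNA, fewer cells that express a gene and less RNA per cell cannot be told apart.

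The families differed in how many copies passed. In NPIPA 8 of 8 fell (median log2 fold change -0.80), in GOLGA6 7 of 10 (-1.42), in NPIPB 7 of 14 (-0.66) and in GOLGA8 4 of 14 (-0.36). The gene that was not tested is the second GOLGA8M row (ENSG00000261480.1, a lincRNA that overlaps the coding GOLGA8M), with 8, 9 and 20 counts in TTC3 shRNA libraries and 8, 15 and 9 in control libraries. GOLGA6A, GOLGA6B, GOLGA6C and GOLGA6D passed the filter on low counts through the control libraries alone, so by that filter they had to be higher there. Without these 4, 22 of 42 tested genes fell, with a median log2 fold change of -0.63.

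**Figure D1:**
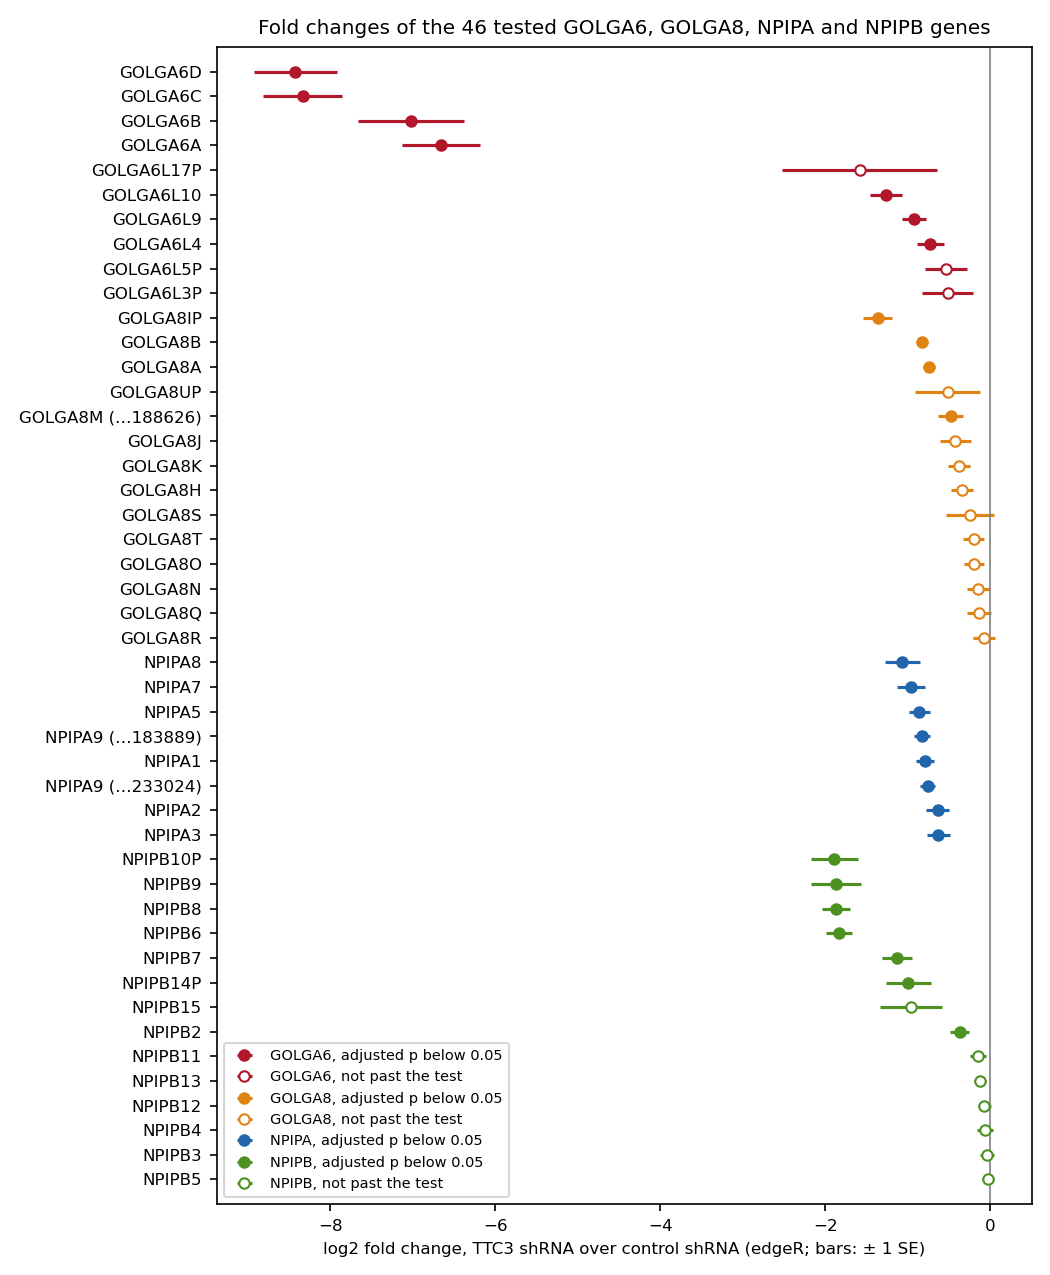
Log2 fold change of each tested family gene (x axis, TTC3 shRNA over control shRNA, edgeR; bars are ± 1 SE), with filled points for genes past an adjusted p of 0.05 and open points for the rest. All 46 points lie left of 0, GOLGA6D at -8.43 and NPIPB5 at -0.02.

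GOLGA6A, GOLGA6B, GOLGA6C and GOLGA6D lie on chromosome 15 and encode almost the same coiled-coil protein. GOLGA6C (ENSG00000167195.8, protein-coding, chr15:75258599-75270199) had 4, 1 and 0 counts in TTC3 shRNA libraries, against 704, 654 and 531 in control libraries. GOLGA6A (chr15:74069857-74082550) had 2, 1 and 0 counts in TTC3 shRNA libraries, against 130, 125 and 115 in control libraries. GOLGA6B (chr15:72654738-72666394) had 0, 3 and 0 counts in TTC3 shRNA libraries, against 152, 171 and 155 in control libraries. For each of these genes every TTC3 shRNA library was close to 0 and far below every control. GOLGA6D (chr15:75282835-75295807), which lies beside GOLGA6C, had 0, 1 and 0 counts in TTC3 shRNA libraries and 175, 193 and 145 in control libraries.

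Scaled to library size and pooled over the 3 libraries, GOLGA6C in TTC3 shRNA cells was 0.289% of its control level (95% exact interval 0.0938% to 0.676%) and GOLGA6D 0.213% (0.00538% to 1.19%). GOLGA6A was at 0.885% (0.182% to 2.61%) and GOLGA6B at 0.685% (0.141% to 2.02%). These intervals overlap, cover counting error only and take the counts of each copy as separate, although the copies share reads. Differences between the 4 copies in how far they fell were not tested. The fitted log2 changes were -6.66 ± 0.48 for GOLGA6A (SE, edgeR adjusted p = 0.000137), -7.02 ± 0.64 for GOLGA6B (0.000381), -8.33 ± 0.48 for GOLGA6C (5.3e-05) and -8.43 ± 0.50 for GOLGA6D (6.1e-05), and with so few counts they depend on the prior count. Because these genes passed the filter through the control libraries alone, their p-values are not separate support for the direction.

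The coding sequences of these copies are largely shared. Over 2079 aligned bases the 4 coding sequences (GENCODE 29) were 99.33% to 99.62% identical in every pair, and 1049 of the 2005 windows of 75 bases in the GOLGA6C coding sequence occurred in all 4. The first sequence below is one such window, at coding positions 1236 to 1310 of GOLGA6C (+ strand), and a read lying wholly inside it fits all 4 copies equally. The next ones are GOLGA6C and GOLGA6D at coding positions 1963 to 2037, where capitals mark the 4 bases that differ.
GOLGA6A, GOLGA6B, GOLGA6C and GOLGA6D: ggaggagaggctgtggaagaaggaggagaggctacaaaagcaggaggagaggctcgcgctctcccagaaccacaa
GOLGA6C: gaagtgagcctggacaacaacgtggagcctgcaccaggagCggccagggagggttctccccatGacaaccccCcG
GOLGA6D: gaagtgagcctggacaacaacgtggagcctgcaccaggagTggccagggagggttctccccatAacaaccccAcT
The sum over the 4 copies does not depend on how such reads were divided among them. It was 6, 6 and 0 counts in TTC3 shRNA libraries, against 1161, 1143 and 946 in control libraries, or 0.0279 ± 0.0242 CPM in TTC3 shRNA cells and 6.89 ± 0.486 CPM in control cells (SD, n = 3 each).

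The GOLGA6L genes are a more distant branch, and their fitted changes were smaller. GOLGA6L9 had 505, 342 and 363 counts in TTC3 shRNA libraries, against 897, 827 and 771 in control libraries (log2 fold change -0.92 ± 0.15, adjusted p = 0.00413). GOLGA6L10 had 98, 68 and 74 counts in TTC3 shRNA libraries, against 242, 223 and 164 in control libraries (-1.26 ± 0.20, 0.00362). GOLGA6L4 had 68, 56 and 62 counts in TTC3 shRNA libraries, against 110, 118 and 107 in control libraries (-0.72 ± 0.17, 0.0154). In each of these the groups did not overlap. Among the fits that leave out 1 library, GOLGA6L4 lost its call without control replicates 1, 2 or 3 or TTC3 shRNA replicate 2 (adjusted p = 0.0562, 0.0671, 0.0627 and 0.055). The pseudogenes GOLGA6L3P, GOLGA6L5P and GOLGA6L17P did not pass, with log2 fold changes of -0.51, -0.53 and -1.58. Summed, the 6 GOLGA6L genes were at 4.32 ± 0.544 CPM in TTC3 shRNA cells and 8.23 ± 0.637 CPM in control cells.

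**Figure D2:**
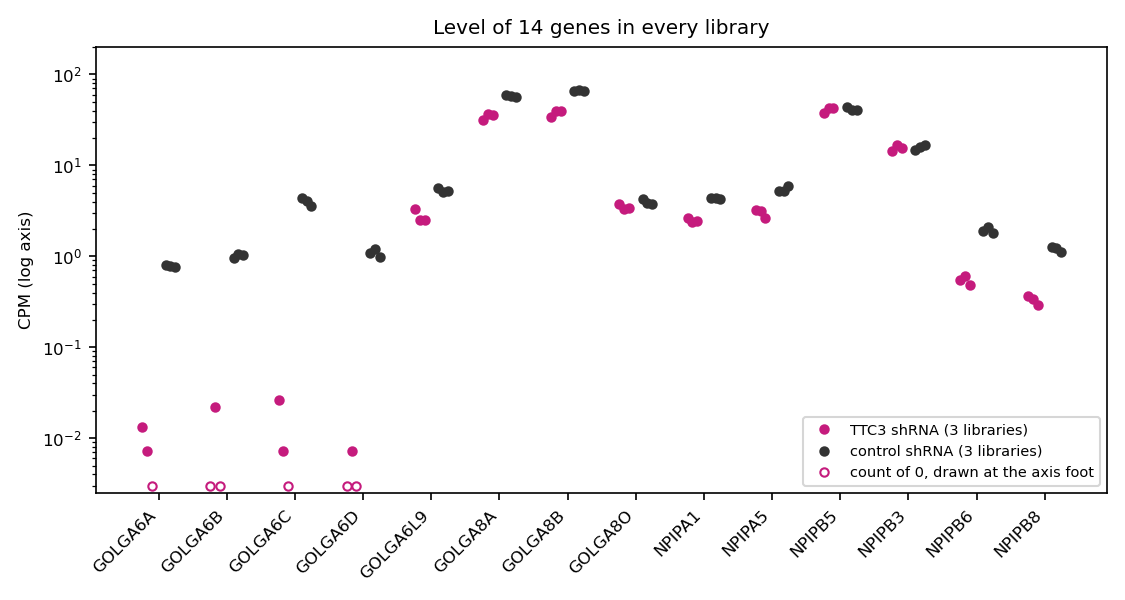
Level in every library (y axis, CPM on a log axis) of 14 family genes along the x axis, TTC3 shRNA libraries left of control libraries for each gene; open circles at the foot stand for a count of 0. GOLGA6A to GOLGA6D in TTC3 shRNA libraries are all below 0.03 CPM, GOLGA8A and GOLGA8B are lower without overlap, and the NPIPB5 and NPIPB3 points overlap.

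GOLGA8A and GOLGA8B held most of the GOLGA8 reads and both fell. GOLGA8A (chr15:34379068-34437466) had 4783, 5005 and 5153 counts in TTC3 shRNA libraries, against 9498, 9390 and 8520 in control libraries. Its log2 fold change was -0.74 ± 0.07 (SE, edgeR adjusted p = 0.000518). GOLGA8B (chr15:34525207-34588503) had 5154, 5430 and 5622 counts in TTC3 shRNA libraries, against 10566, 10976 and 9853 in control libraries, a log2 fold change of -0.82 ± 0.07 (adjusted p = 0.000371). For both genes every TTC3 shRNA library was below every control library, and their coding sequences were 99.84% identical. Together they were at 72.4 ± 5.60 CPM in TTC3 shRNA cells and 124.8 ± 1.62 CPM in control cells, or 58.0% of control. Each overlaps a copy of the microRNA gene MIR1233 on its own strand, whose rows held 0 to 2 counts in every library.

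Among the other GOLGA8 copies, which lie nearer the centromere of chromosome 15, 2 of 12 fell, a share close to the 17.8% of all tested genes. GOLGA8IP (ENSG00000277561.6) had 66, 73 and 56 counts in TTC3 shRNA libraries, against 193, 183 and 174 in control libraries (log2 fold change -1.36 ± 0.18, adjusted p = 0.00169). The coding GOLGA8M row (ENSG00000188626.7) had 115, 122 and 108 counts in TTC3 shRNA libraries, against 178, 182 and 166 in control libraries (-0.48 ± 0.15, 0.0454). It lost its call without any 1 of the 6 libraries (adjusted p = 0.0601 to 0.134) with DESeq2 (0.079) and with no filter on low counts (0.0791), and it overlaps WHAMMP2 on the other strand. GOLGA8N, the most abundant of this set, had 740, 526 and 569 counts in TTC3 shRNA libraries, against 806, 732 and 668 in control libraries. GOLGA8O had 572, 449 and 490 counts in TTC3 shRNA libraries, against 684, 627 and 568 in control libraries. Neither passed (log2 fold change -0.14 ± 0.14 and -0.19 ± 0.12, adjusted p = 0.454 and 0.261), and the groups overlapped in GOLGA8N but not in GOLGA8O. The 4 closely similar copies GOLGA8N, GOLGA8O, GOLGA8Q and GOLGA8R summed to 13.6 ± 1.48 CPM in TTC3 shRNA cells and 14.9 ± 0.927 CPM in control cells, a difference within the spread of the libraries. The remaining copies had log2 fold changes from -0.51 (GOLGA8UP) to -0.07 (GOLGA8R), and none passed.

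GOLGA8N shows how estimates moved within a gene. Its transcript ENST00000448387.7 held 740, 236 and 569 counts in TTC3 shRNA libraries and 806, 732 and 668 in control libraries. Its transcript ENST00000569659.6 held 0, 290 and 0 counts in TTC3 shRNA libraries and 0 in every control library. In TTC3 shRNA replicate 2 alone, 290 of the gene's 526 counts were placed on a transcript that was empty everywhere else, so single transcript estimates are uncertain.

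The start regions of GOLGA6 and GOLGA8 genes were compared because some copies fell far and others did not. RefSeq (GRCh38.p14) gave a window from 250 bases before to 50 after the start for 29 of the family symbols. The windows of GOLGA6A and GOLGA6B were identical and differed from that of GOLGA6D in 1 base, whereas RefSeq places the GOLGA6C start elsewhere. The GOLGA6A, GOLGA6B and GOLGA6D windows were 81.8% to 83.7% identical to those of 9 GOLGA8 copies and 56.06% to 56.33% identical to that of GOLGA8Q. The GOLGA8Q window was also only 55.38% to 61.89% identical to those 9 GOLGA8 copies. Each window depends on the annotated start, and whether a shifted start gives these low values was not tested. The GOLGA8B window was 40.8% to 48.2% identical to the other GOLGA6 and GOLGA8 windows and held 38 CpG pairs in 300 bases at 69.3% GC. GOLGA6D, GOLGA8O and GOLGA8B are shown as a copy that was nearly lost, a copy that did not pass the test and a copy with another start region. They lie at chr15:75282585-75282884 (+), chr15:32455585-32455884 (-) and chr15:34583602-34583901 (-), each printed along its own gene's strand. In GOLGA8O capitals mark the 45 bases unlike the aligned GOLGA6D window, and in GOLGA8B they mark CpG pairs.
GOLGA6D: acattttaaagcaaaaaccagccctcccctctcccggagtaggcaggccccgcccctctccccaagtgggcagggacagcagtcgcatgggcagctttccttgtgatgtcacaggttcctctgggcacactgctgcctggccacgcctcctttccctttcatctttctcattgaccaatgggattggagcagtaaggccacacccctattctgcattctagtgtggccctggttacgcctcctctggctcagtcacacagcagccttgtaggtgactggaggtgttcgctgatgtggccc
GOLGA8O: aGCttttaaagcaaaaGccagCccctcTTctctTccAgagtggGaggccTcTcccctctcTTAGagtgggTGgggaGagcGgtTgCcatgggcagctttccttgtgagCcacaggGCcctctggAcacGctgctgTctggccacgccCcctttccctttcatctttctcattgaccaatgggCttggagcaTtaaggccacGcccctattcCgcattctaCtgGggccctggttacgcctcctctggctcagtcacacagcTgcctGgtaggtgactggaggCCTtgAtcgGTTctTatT
GOLGA8B: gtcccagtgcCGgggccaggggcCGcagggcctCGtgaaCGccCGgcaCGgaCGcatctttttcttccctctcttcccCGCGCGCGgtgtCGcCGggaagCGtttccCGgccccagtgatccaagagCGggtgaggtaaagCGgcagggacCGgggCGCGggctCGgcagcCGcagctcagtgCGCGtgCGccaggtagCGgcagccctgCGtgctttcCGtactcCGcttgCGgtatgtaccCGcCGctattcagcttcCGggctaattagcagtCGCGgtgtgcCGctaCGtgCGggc
Of 3 motifs searched on both strands, CCAAT occurred in 5 of 7 GOLGA6 and 10 of 11 GOLGA8 windows, against 34.6% of all 35116 windows. GGGCGG occurred in 6 of 7 GOLGA6 and 0 of 11 GOLGA8 windows, against 44.95% of all windows, and TATAAA in 1 of 7 and 0 of 11, against 11.5%. GGGCGG was also in 0 of 5 NPIPA windows, although all 8 NPIPA genes fell, and in 2 of 6 NPIPB windows. GOLGA6L4 and GOLGA6L10, with smaller falls, held it, and GOLGA8B, which fell, did not. Whether a motif goes with the fall was not tested. None of these motifs contains another, and whether matches overlapped within a window was not checked. A match describes letters in the window and not a bound site. Many of these windows are near-copies of each other (those of GOLGA8J and GOLGA8T were identical), so the motif counts are not separate occurrences.

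All 8 NPIPA genes fell, by similar amounts. NPIPA1 (chr16:14922802-14952060) had 397, 327 and 354 counts in TTC3 shRNA libraries, against 699, 702 and 630 in control libraries (log2 fold change -0.79 ± 0.11, SE, edgeR adjusted p = 0.00234). NPIPA5 had 485, 429 and 380 counts in TTC3 shRNA libraries, against 831, 833 and 889 in control libraries (-0.86 ± 0.13, 0.00318). The strongest fitted fall was that of NPIPA8, with 370, 265 and 200 counts in TTC3 shRNA libraries and 601, 657 and 640 in control libraries (-1.07 ± 0.21, 0.009). In all 8 the TTC3 shRNA libraries lay below the controls. NPIPA2 lost its call without control replicate 1 or 2 (adjusted p = 0.0597 and 0.0564), and NPIPA3 without control replicate 1 or 2 or TTC3 shRNA replicate 2 (0.0594, 0.0652 and 0.0542). NPIPA7 fell by 0.96 ± 0.17 (adjusted p = 0.00559). The symbol NPIPA9 stands on 2 rows, ENSG00000183889.12 and ENSG00000233024.7, which fell by 0.82 ± 0.10 and 0.75 ± 0.09 (adjusted p = 0.00122 and 0.00125). GENCODE 29 gives these identifiers the names PKD1P1 and AC126755.2.

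NPIPA copies can hardly be told apart by their sequence. NPIPA2 had 164, 135 and 165 counts in TTC3 shRNA libraries, against 276, 274 and 237 in control libraries. NPIPA3, 99.91% identical to it in coding sequence, had 164, 134 and 166 counts in TTC3 shRNA libraries, against 266, 282 and 235 in control libraries. Their counts were nearly equal library by library, so these 2 genes are not independent measurements, although both are included in the counts of genes. The sum over the 8 genes was 20.5 ± 1.57 CPM in TTC3 shRNA cells and 36.5 ± 0.983 CPM in control cells, or 56.3% of control. Of the 75-base windows of each NPIPA gene, 39.8% to 75.8% also occurred in genes outside the 4 families, so this sum still depends on how reads were divided with those genes.

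NPIPB split into copies that fell steeply and abundant copies that did not pass. NPIPB6 (chr16:28342555-28363508) had 82, 84 and 69 counts in TTC3 shRNA libraries, against 305, 338 and 272 in control libraries (log2 fold change -1.83 ± 0.16, SE, edgeR adjusted p = 0.000323). NPIPB8 had 55, 47 and 42 counts in TTC3 shRNA libraries, against 205, 201 and 168 in control libraries (-1.86 ± 0.17, 0.000409). NPIPB9 had 84, 70 and 35 counts in TTC3 shRNA libraries, against 258, 283 and 215 in control libraries (-1.87 ± 0.30, 0.00424). These genes are neighbours on chromosome 16, and in each the groups were well apart. NPIPB7 and the pseudogene NPIPB10P, in the same stretch, fell by 1.13 ± 0.18 and 1.89 ± 0.28 (adjusted p = 0.0038 and 0.00313). NPIPB14P, on the long arm, fell by 0.99 ± 0.27 (0.0302), and this call was lost without control replicates 1, 2 or 3 or TTC3 shRNA replicate 2 (adjusted p = 0.0625, 0.1, 0.105 and 0.0984). With no filter on low counts NPIPB14P was at 0.053. NPIPB2 fell by 0.37 ± 0.12 (0.0482) and overlaps TNFRSF17 on the other strand. Its call was lost with DESeq2 size factors, with no filter and without any 1 library other than TTC3 shRNA replicate 1 (adjusted p = 0.0524 to 0.168). NPIPB15 did not pass (-0.96 ± 0.38, 0.0906).

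The abundant copies behaved otherwise. NPIPB5 (chr16:22479121-22536521) had 5731, 5797 and 6158 counts in TTC3 shRNA libraries, against 6935, 6538 and 6140 in control libraries, or 41.07 ± 2.65 CPM in TTC3 shRNA cells and 41.6 ± 1.46 CPM in control cells. Its log2 fold change was -0.02 ± 0.07 (adjusted p = 0.856). The libraries of the groups overlapped in NPIPB5, as in NPIPB3, NPIPB4, NPIPB11 and NPIPB12. NPIPB3, NPIPB4 and NPIPB13 had log2 fold changes of -0.03 ± 0.09, -0.06 ± 0.09 and -0.12 ± 0.08 (adjusted p = 0.792, 0.659 and 0.260). Among the alternatives run, NPIPB13 passed only without TTC3 shRNA replicate 1, at -0.15 (adjusted p = 0.0424). NPIPB3, NPIPB4 and NPIPB5 overlap the SMG1 pseudogenes SMG1P3, SMG1P4 and SMG1P1, so reads may be shared with them too, which was not tested. SMG1P3 and SMG1P1 fell by 0.42 ± 0.09 and 0.34 ± 0.09 (edgeR adjusted p = 0.0113 and 0.0307). SMG1P4 did not pass (-0.27 ± 0.10, 0.0779).

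The 2 NPIPB sets were less alike than the copies within each set. NPIPB9 and NPIPB5 were 89.29% identical over 1223 aligned coding bases, and 17.6% of the NPIPB9 windows of 75 bases occurred in NPIPB5, while NPIPB6 and NPIPB9 were 97.02% identical and NPIPB3 and NPIPB5 99.92%. The sequences below show a stretch at coding positions 282 to 356 of NPIPB9 and 237 to 311 of NPIPB5 (GENCODE 29, chromosome 16), with the 6 differing bases in capitals.
NPIPB9: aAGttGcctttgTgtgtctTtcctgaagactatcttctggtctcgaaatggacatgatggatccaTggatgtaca
NPIPB5: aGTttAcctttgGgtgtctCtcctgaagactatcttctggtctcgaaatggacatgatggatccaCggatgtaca
Summed over each set, NPIPB6, NPIPB7, NPIPB8 and NPIPB9 were at 1.79 ± 0.279 CPM in TTC3 shRNA cells and 5.80 ± 0.344 CPM in control cells, or 30.9% of control. In these 4 genes 40.3% to 89.6% of the windows also occurred outside the 4 families. NPIPB3, NPIPB4, NPIPB5, NPIPB12 and NPIPB13 were at 102 ± 5.00 CPM in TTC3 shRNA cells and 106 ± 1.92 CPM in control cells, or 96.6%, which was within the spread of the libraries, and 10.07% to 26.3% of their windows occurred outside the families.

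**Figure D3:**
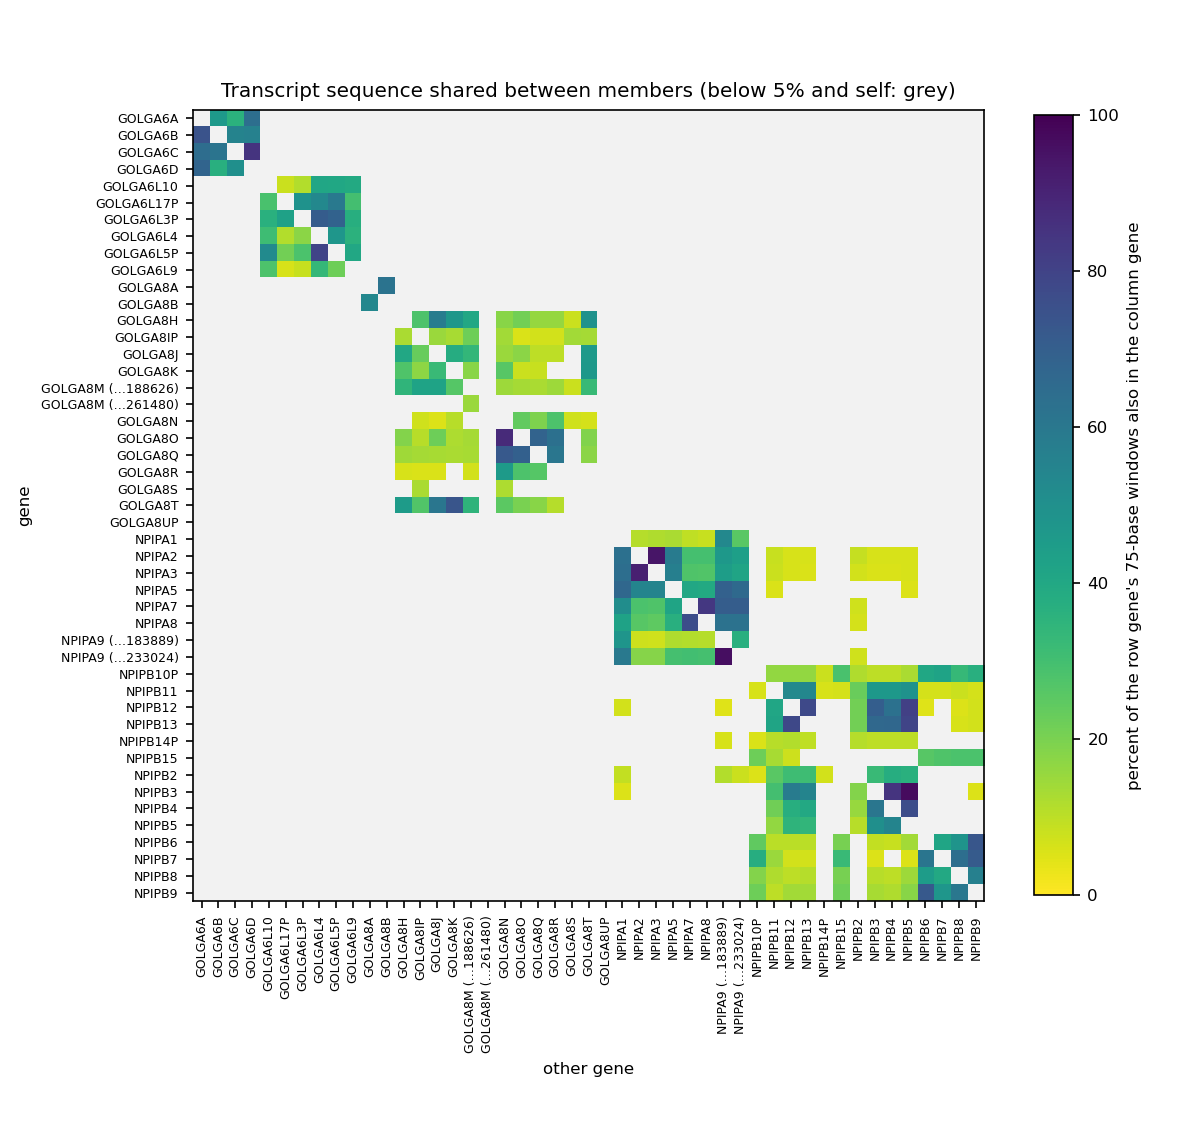
Percent of each row gene's 75-base transcript windows that also occur in the column gene (colour scale, 0 to 100), for the 47 family genes in family order; grey cells are below 5% or the gene itself. Sharing lies in blocks within families, such as GOLGA6A to GOLGA6D, GOLGA8A with GOLGA8B, the NPIPA genes and 2 NPIPB blocks.

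Shared sequence was measured for every family gene. A median of 21.0% of a gene's 75-base transcript windows occurred in no other annotated gene, from 0% for NPIPA9 (ENSG00000233024.7) to 97.2% for GOLGA8UP, and 41 of the 47 genes were under 50%. The 75-base length is an assumption, since the read length is not given in the sources used here. Across the 46 tested genes the share of own sequence and the log2 fold change had a Spearman rho of -0.029, as a description, the genes sharing the same libraries. Joining genes of which 1 shared at least 60% of its windows with the other gave 8 groups with 33 genes and left 14 genes alone, a limit chosen after the values were seen. By sums, these groups ran from 0.405% of control (GOLGA6A to GOLGA6D) and 30.9% (NPIPB6 to NPIPB9) over 56.3% (NPIPA), 58.0% (GOLGA8A and GOLGA8B) and 64.9% (GOLGA6L3P, GOLGA6L4 and GOLGA6L5P) to 79.9% (GOLGA8J, GOLGA8K and GOLGA8T), 90.9% (GOLGA8N, GOLGA8O, GOLGA8Q and GOLGA8R) and 96.6% (NPIPB3, NPIPB4, NPIPB5, NPIPB12 and NPIPB13). Small RN7SL pseudogenes lie on the same strand inside 16 of the family genes, and their own rows summed to 0 to 13 counts over the 6 libraries.

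The make-up of the family reads shifted accordingly. All 47 genes summed to 235 ± 7.75 CPM in TTC3 shRNA cells and 328 ± 1.87 CPM in control cells, or 71.6% of control. GOLGA6 was at 28.7% of its control sum, NPIPA at 56.3%, GOLGA8 at 62.4% and NPIPB at 92.1%. NPIPB held 48.5%, 49.9% and 49.6% of the family counts in TTC3 shRNA replicates 1, 2 and 3, against 38.1%, 38.0% and 39.0% in control replicates 1, 2 and 3. On a scale that divides each estimated transcript by its length and sums them per gene, so that it carries the same uncertainty as the transcript estimates, NPIPB5 was at 11.1 ± 0.751 CPM per kb in TTC3 shRNA cells and 11.1 ± 0.447 CPM per kb in control cells, NPIPA5 at 2.88 ± 0.306 in TTC3 shRNA cells and 5.20 ± 0.422 in control cells, and GOLGA6C at 0.00542 ± 0.00658 in TTC3 shRNA cells and 1.92 ± 0.202 in control cells.

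**Figure D4:**
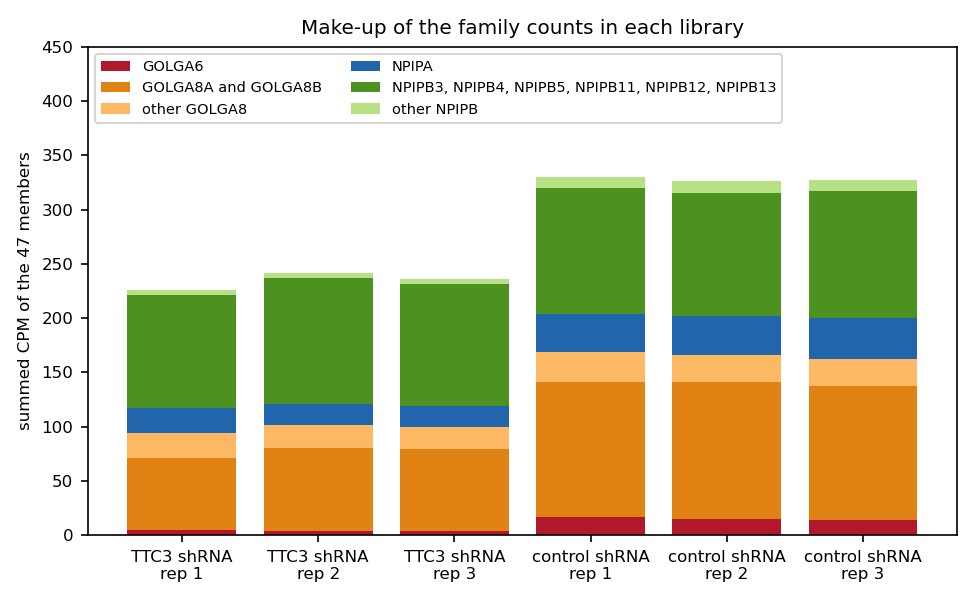
Summed CPM of the 47 family genes in each library (y axis), TTC3 shRNA libraries left of control libraries, with bar segments for GOLGA6, GOLGA8A with GOLGA8B, other GOLGA8, NPIPA, 6 abundant NPIPB genes and other NPIPB. The TTC3 shRNA bars reach 226 to 242 CPM and the control bars 326 to 330 CPM, while the 6 abundant NPIPB genes are at 105 to 115 CPM in TTC3 shRNA libraries and 113 to 117 CPM in control libraries.

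The genes around the copies were described by position. The 26 tested protein-coding genes of other families between GOLGA6B and GOLGA6D had a median log2 fold change of -0.42, and 19 of them fell and 0 rose. In the GOLGA6L stretch the median of 21 such genes was -0.54, with 14 lower and 1 higher. The median of all tested genes was -0.02, and 17.8% of them fell and 15.7% rose. Within 500 kb the lowest neighbour of GOLGA6A was ARID3B, which fell by 1.95 ± 0.06 (SE, edgeR adjusted p = 6.79e-06), and that of GOLGA6C and GOLGA6D was NEIL1, at -1.14. The lowest neighbour of GOLGA6B was GRAMD2A, with 0 counts in every TTC3 shRNA library, against 13, 30 and 23 in control libraries. Its fitted change was -7.41 ± 1.08, against -7.02 ± 0.64 for GOLGA6B. Both genes passed the filter through the control libraries alone and both changes depend on the prior count, so the 2 cannot be ordered. Around NPIPA the 13 such genes had a median of 0.08 (3 lower, 3 higher), and between NPIPB6 and NPIPB10P 15 genes had a median of 0.13 (3 lower, 4 higher). In the proximal stretch that holds the GOLGA8 genes, 37 genes had a median of -0.01, with 9 lower and 4 higher. Within 500 kb of GOLGA8K, GOLGA8N and GOLGA8O the neighbour median was -0.51, below the changes of these copies (-0.38, -0.14 and -0.19). Pseudogenes were not among these neighbours. The NPIPA9 rows overlap the pseudogenes PKD1P1 and PKD1P5 on the same strand. PKD1P1, PKD1P3 and PKD1P5 fell by 0.53, 0.59 and 0.58 (edgeR adjusted p = 0.0187, 0.00886 and 0.00875), whereas PKD1P2, PKD1P4 and PKD1P6 did not pass. Whether the NPIPA and PKD1P falls share reads was not tested.

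**Figure D5:**
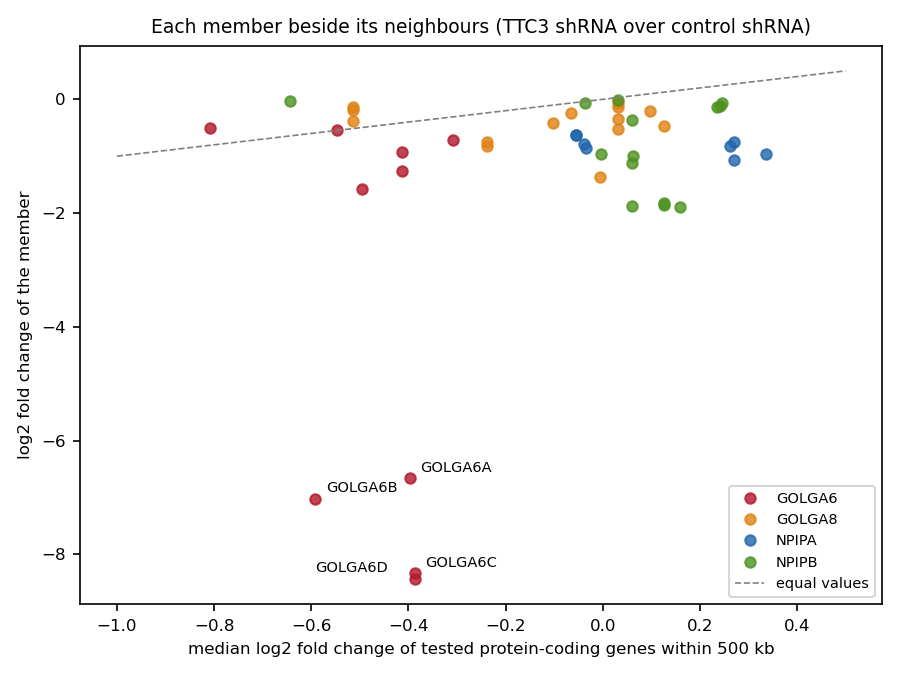
Log2 fold change of each tested family gene (y axis, TTC3 shRNA over control shRNA) against the median log2 fold change of tested protein-coding genes of other families within 500 kb (x axis); the dashed line marks equal values. GOLGA6A to GOLGA6D lie between -6.66 and -8.43 while their neighbour medians lie between -0.59 and -0.39 (single neighbours are not drawn, and 1 near GOLGA6B was at -7.41), and the NPIPA points have neighbour medians near or above 0.

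Related genes outside these families were counted with lists named by family or position. Among 21 other golgins and Golgi matrix genes 11 fell and 1 rose (median log2 fold change -0.31). These shares were 52.4% and 4.76%, against 17.8% and 15.7% of all tested genes. GORAB, a golgin-binding protein, was at 11.3 ± 0.534 CPM in TTC3 shRNA cells and 19.8 ± 0.683 CPM in control cells, and the large golgin GOLGB1 was at 189 ± 27.3 CPM in TTC3 shRNA cells and 319 ± 8.21 CPM in control cells (adjusted p = 0.00044 and 0.00236). GOLM1, a Golgi membrane protein, fell by 0.44 ± 0.05 (adjusted p = 0.0015). GOLGA2, the golgin to which the GOLGA6 and GOLGA8 copies are related, was at 50.5 ± 7.10 CPM in TTC3 shRNA cells and 56.5 ± 0.829 CPM in control cells and did not pass (adjusted p = 0.268), and it is named outside the rule for named genes.

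Of 77 tested genes of other segmentally duplicated families (NBPF, RGPD, LRRC37, TBC1D3, SPDYE, PMS2P and STAG3L), 19 fell and 0 rose (median -0.20), with 3 higher at an unadjusted p below 0.05, 1 higher by DESeq2 and 0 by limma-voom. NBPF1 fell by 1.32 ± 0.06, NBPF3 by 0.79 ± 0.06 and NBPF25P by 1.01 ± 0.09 on the log2 scale (adjusted p = 2.1e-05, 0.000171 and 0.000309). Of 81 tested genes in or beside the duplication blocks of chromosomes 15 and 16, 23 fell and 8 rose (median -0.22). The share that fell was 24.7% in the duplicated families and 28.4% in the blocks, against 17.8% of all tested genes. In the blocks 9.88% rose, against 15.7% of all tested genes. The pseudogene PDXDC2P fell by 1.93 ± 0.20, HERC2P3 by 0.45 ± 0.06 and the DNA glycosylase gene NEIL1 by 1.14 ± 0.16 (adjusted p = 0.000723, 0.00187 and 0.0024). A joined gene named for PDXDC2P and NPIPB14P is annotated, so reads may be shared between them, which was not tested. The differences in share between these lists and the 4 families were not tested.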

How the data were processed

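RNA-seq of 3 TTC3 shRNA and 3 control shRNA libraries was analysed, with groups and replicate numbers taken from the titles. Per the labels' protocols, a ribosomal depletion kit and a directional library kit were used, and StringTie, STAR, Trim Galore and the hg38 build are named in the submitters' processing notes. Not given in the sources used here are versions, roles, read length, annotation release and any use of strand in counting. The deposited tables hold estimated counts per gene and per transcript, made by the authors, in whole numbers and without scaling.

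Counts were tested with edgeR 4.0.16 (R 4.3.3): filterByExpr (minimum 10, total 15), TMM factors of 0.924 to 1.05, glmQLFit and glmQLFTest over 6 libraries with no block, and Benjamini-Hochberg adjustment over 24325 genes at 0.05. The SE is the log2 fold change divided by the square root of F. CPM uses scaled library sizes. The 143246356 to 155526861 counts per library make the spread between libraries the main limit for abundant genes and counting the main one for rare genes. The filter cutoff was 0.0659 CPM. The per-library log2 differences used a pseudocount of 0.05 CPM. Replicates of a group differed by 4.12 to 54.07 times the sampling noise, so each was kept as its own replicate. The test was tried on simulated data.

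Positions, gene types, transcripts and coding sequences were those of GENCODE 29 (GRCh38, the same assembly as hg38), matched by gene identifier for 47 of 47 genes, and promoter windows from RefSeq. Windows of 75 bases were compared between same-strand transcripts. Named were, per family, the 4 genes with the highest mean CPM and up to 6 past the test by adjusted p, and up to 3 per other list. Other genes named stand outside this rule and were chosen after their values were seen. The genes, lists and groupings were chosen with earlier results of these data known. Sums over copies got no test. Some marker genes are not reported here. Alternatives were other scalings, DESeq2 1.42.0, limma-voom 3.58.1, other filters, an adjusted p of 0.01, a replicate block, each library left out, and windows of 50, 100 and 150 bases.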

Additional observations from a re-analysis of the deposited data

How the results depend on the processing

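The number of family genes that fell was 20 to 28 under every alternative run, against 26, and 0 rose in each. It was 20 to 27 when 1 library was left out. Of the 26 genes, 20 fell under all 14 alternatives fitted at an adjusted p of 0.05, GOLGA6A to GOLGA6D, GOLGA8A, GOLGA8B, NPIPA1 and NPIPB6 to NPIPB9 among them, whereas GOLGA6L4, GOLGA8M (ENSG00000188626.7), NPIPA2, NPIPA3, NPIPB2 and NPIPB14P did not. GOLGA6A to GOLGA6D passed the main filter through the control libraries alone. Scaling by library totals alone moved the all-gene median log2 fold change to -0.15 and that of the family genes to -0.86.

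The sign of NPIPB3, NPIPB4 and NPIPB5 was not stable. With 1 library left out, their log2 fold changes ranged over -0.082 to 0.034, -0.105 to 0.043 and -0.040 to 0.050, and each was highest without TTC3 shRNA replicate 1 (edgeR adjusted p = 0.71, 0.498 and 0.318). NPIPB5 was also at 0.0087 without control replicate 1 and NPIPB3 at 0.013 without control replicate 3 (adjusted p = 0.957 and 0.947).

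Over all genes, leaving out 1 library gave 2711 to 7065 lower and 1835 to 6674 higher genes, against 4338 and 3827. Lower counts were 2711, 2763 and 2757 without control replicates 1, 2 and 3 and 7065 without TTC3 shRNA replicate 1, and 2200 genes were higher without TTC3 shRNA replicate 2. The cause was not tested, beyond fewer libraries in each fit. An adjusted p of 0.01 left 2394 lower and 1688 higher genes, and library totals alone gave 2518 higher. When 1 library was left out, other golgins gave 5 to 14 lower and 1 to 2 higher, other duplicated families 9 to 28 lower and 0 to 5 higher, and duplication-block genes 11 to 31 lower and 2 to 15 higher. At 0.01 these lists gave 5 golgins lower, 6 duplicated-family genes lower, and 11 block genes lower and 2 higher. DESeq2 gave 1 duplicated-family gene higher, and library totals alone gave 5 block genes higher. The median share of windows in no other gene was 15.6% at 50 bases, 26.4% at 100 and 38.8% at 150, since longer windows differ more often.

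Same-numbered libraries deviated together by correlations of 0.116, 0.122 and 0.0013, so the numbers were not taken as pairs. With the replicate number as a block 23 family genes fell and 0 rose, and GOLGA6L4, GOLGA8M (ENSG00000188626.7) and NPIPB2 were at an adjusted p of 0.052, 0.0956 and 0.107. Copies at under 10 counts in a group limit how far a fall can be measured.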
